A study of Mus musculus with 12 samples.

Results

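The genes described here are 10 genes of the interleukin-10 (IL-10) axis, measured by mRNA sequencing in mouse hearts. They are the ligand Il10, its receptor chains Il10ra and Il10rb, the kinases Jak1 and Tyk2, the transcription factor Stat3, and Socs3, Bcl3, Tnfaip3 and Il4ra, which are known to respond to the cytokine in macrophages. They were picked by symbol for their place in the pathway, with earlier results of these data known, and all 10 were found among the 55357 gene identifiers of the count table. The 12 libraries came from male mice operated on at 8 weeks of age, 3 in each of 4 groups. WT sham and WT TAC hearts were from wild-type C57BL/6J mice, and KO sham and KO TAC hearts from Cd163-/- mice on the same background. Cd163 encodes the haemoglobin scavenger receptor of tissue macrophages. TAC is transverse aortic constriction, a ligature around the aortic arch set with a 27-gauge needle so that the left ventricle pumps against a raised pressure, and sham animals had the operation without the ligature. The knockout was carried by the whole animal as far as the labels say, and how long after surgery the hearts were taken was not found in the labels. The title of the series ties the effect of Cd163 on pressure overload to IL-10.

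IL-10 is a secreted cytokine that restrains inflammatory gene expression, best known in macrophages. It binds Il10ra, the chain that gives the receptor its specificity, together with Il10rb, a chain shared with the receptors of other cytokines of the family. Jak1 sits on the first chain and Tyk2 on the second, and both act on Stat3, whose targets include Socs3, an inhibitor of cytokine signalling. Bcl3, an atypical inhibitor of NF-kB, and Tnfaip3, the ubiquitin-editing enzyme A20, both limit inflammatory transcription. Il4ra is the receptor chain through which IL-4 and IL-13 act.

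Total counts per library ran from 14150109 to 22602225. One sham heart stood with another group: mitochondrial genome transcripts made up 51.0% of the counts in KO sham replicate 1, against 44.0% to 51.3% in KO TAC libraries and 24.8% to 36.9% in the other 8. The targeted gene Cd163 read 13.7 to 29.5 CPM (read counts scaled to a common library total, with TMM factors) in WT libraries and 3.14 to 4.60 CPM in KO libraries, and its log2 difference between KO and WT after TAC was −2.69 ± 0.28 (adjusted p = 0.00453). KO sham replicate 1, at 3.14 CPM, had the Cd163 level of a KO library, but its surgery label has no such check. With all 12 libraries, every KO sham mean and every comparison with KO sham therefore includes a library whose label is in doubt. The summed CPM of 10 cardiomyocyte markers ran from 57734 to 62171 in WT libraries and from 38723 to 42273 in KO TAC libraries. In KO sham it was 30822 in replicate 1, with 50193 and 53464 in the others. The sum of 15 macrophage markers was 253 to 298 in WT sham, 287 to 462 in WT TAC, 339 to 378 in KO sham and 340 to 359 in KO TAC. T and B lymphocyte markers (11 genes) were low, at 2.81 to 5.29 in WT sham, 2.69 to 6.19 in WT TAC and 5.52 to 11.1 in KO TAC, with 10.7 in KO sham replicate 1 and 4.23 and 4.92 in the other KO sham libraries. Neutrophil markers (9 genes) summed to 1.86 to 5.66 in WT sham, 3.32 to 8.22 in WT TAC and 5.64 to 11.7 in KO TAC, with 7.10 in KO sham replicate 1 and 1.81 and 1.92 in the others. The 9 endothelial markers ran from 1379 to 1941 in WT sham, 1668 to 2844 in WT TAC, 1711 to 2817 in KO sham and 2452 to 2514 in KO TAC. Fibroblast markers (9 genes) ran from 1008 to 1200, 892 to 1844, 1331 to 1955 and 1597 to 1830 in the same order. WT TAC and KO TAC overlapped for both lists, each time through 1 library. For endothelial markers it was WT TAC replicate 1 (2844), with 1695 and 1668 in the other WT TAC libraries, below KO TAC. For fibroblast markers it was WT TAC replicate 5 (1844), with 1058 and 892 in the others, also below KO TAC. No marker was at 0 in every library. The part of cell makeup in the results below was not tested. In whole tissue, fewer cells of a type and less RNA per cell cannot be told apart.

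Il10 itself was at the edge of detection in every heart. Its gene lies at chromosome 1, 131019845 to 131024974 (GRCm38). The raw counts were 1, 0 and 1 in WT sham, 0, 1 and 0 in WT TAC, 1, 1 and 0 in KO sham, and 0, 0 and 3 in KO TAC. That makes 8 counts among 219925052 in the 12 libraries. The group sums of 2, 1, 2 and 3 had exact 95% Poisson intervals of 0.242 to 7.22, 0.0253 to 5.57, 0.242 to 7.22 and 0.619 to 8.77 counts, which overlap in every pair and cover counting error only. A group at 0 would still allow 3 counts, or 0.0475, 0.0561, 0.0524 and 0.0651 CPM, unscaled, in the same order. No group exceeded that floor, no fold is given, and a difference was not detectable at this depth. Il10 did not pass the filter on low counts, so 9 of the 10 genes were tested.

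**Figure D1:**
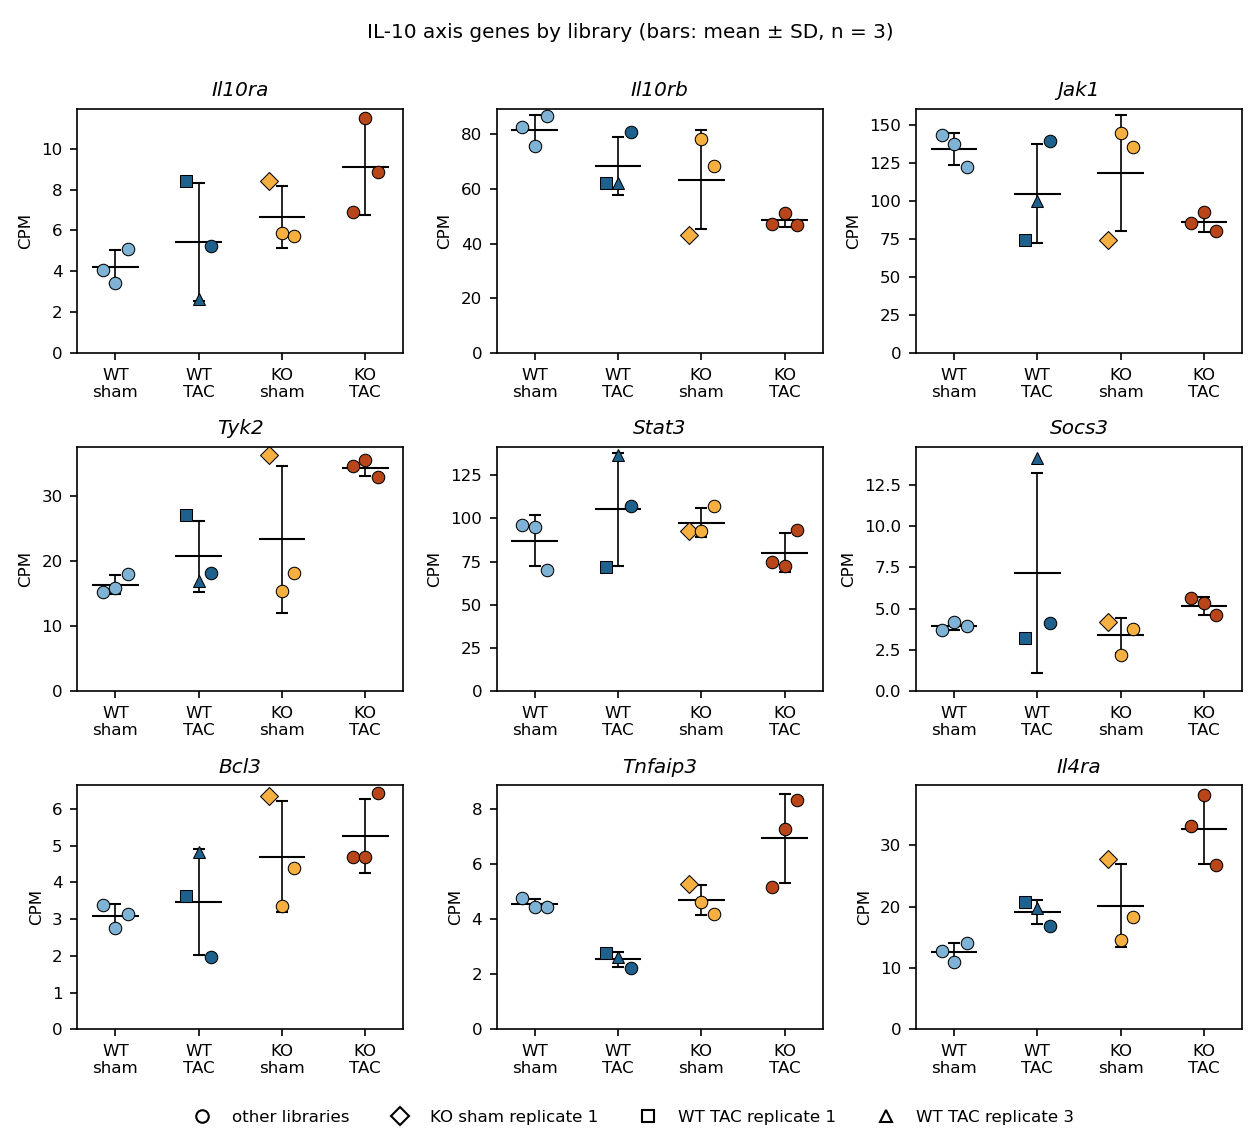
CPM of each gene (vertical axis, linear from 0) in the 12 libraries by group; points are libraries and bars are the mean ± SD of 3. For Tnfaip3 the WT TAC points (2.23 to 2.75 CPM) lie below all KO TAC points (5.17 to 8.33 CPM), and KO sham replicate 1 lies away from the other KO sham libraries for Tyk2, Jak1, Il10rb and Il4ra.

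Levels can be set between genes only per length, here as mean CPM per kilobase of annotated exon over the 12 libraries. On that scale Il10rb (17.2) and Jak1 (15.3) were highest and Stat3 (9.71) came next. Il4ra (3.53) and Tyk2 (3.44) followed, then Il10ra (1.81), Socs3 (1.70) and Bcl3 (1.67), with Tnfaip3 at 0.646 and Il10 at 0.0294. The shared receptor chain stood above the ligand-specific chain in every group on this scale, with mean ± SD from 12.7 ± 0.622 in KO TAC to 21.5 ± 1.43 in WT sham for Il10rb, against 1.20 ± 0.234 in WT sham to 2.60 ± 0.661 in KO TAC for Il10ra (n = 3).

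**Figure D2:**
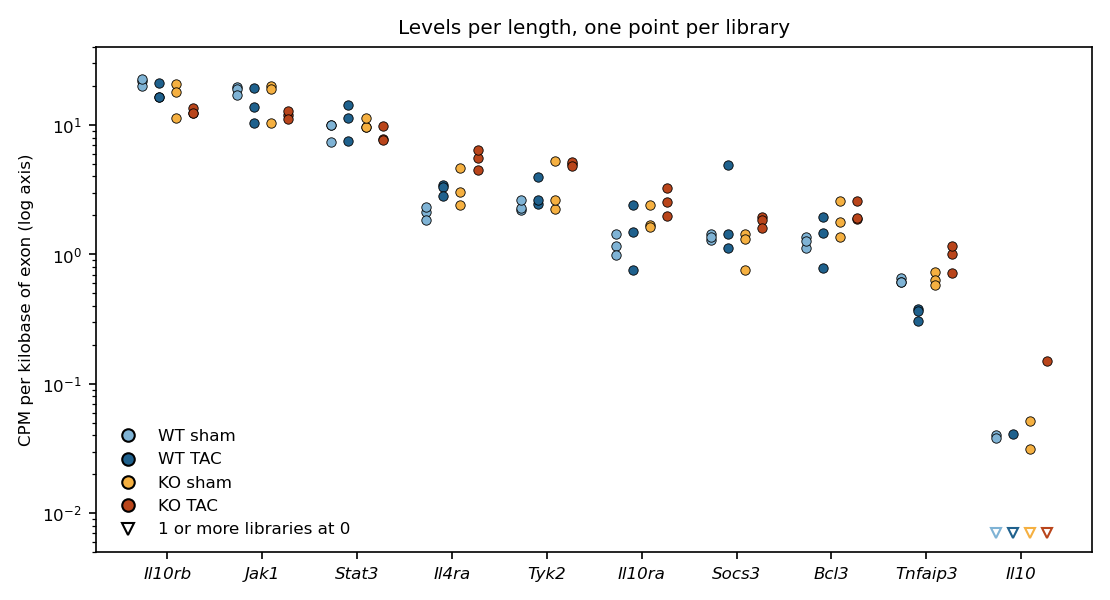
CPM per kilobase of exon (log axis) for the 10 genes, one point per library coloured by group; triangles mark groups with 1 or more libraries at 0. Il10rb and Jak1 form the top of the order and Il10 the bottom, with mean values of 17.2, 15.3 and 0.0294.

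Il10ra, the ligand-specific chain (chromosome 9, 45253837 to 45269149), read low in all groups. WT sham libraries read 4.08, 3.45 and 5.07 CPM, and WT TAC libraries 8.41, 2.63 and 5.23 CPM. KO sham libraries read 8.39, 5.88 and 5.72 CPM, and KO TAC libraries 6.90, 11.5 and 8.85 CPM. Both KO groups had the higher means, but all neighbours in the order of groups overlapped, and WT TAC spanned the widest range. KO sham was above WT sham with no overlap, at a log2 difference of 0.66 ± 0.36 (adjusted p = 0.416), and after TAC the difference was 0.74 ± 0.35 (adjusted p = 0.138). Leaving out WT TAC replicate 1, the library that read 8.41 CPM, brought the latter to 1.21 with an adjusted p of 0.0222. That was the only 1 of the 12 fits with 1 library left out to call it. Leaving out WT TAC replicate 3, the library that read 2.63 CPM, brought it to 0.41 (adjusted p = 0.370).

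Il10rb (chromosome 16, 91406164 to 91425834) ran the other way. It read 82.6, 75.9 and 86.7 CPM in WT sham, 62.2, 62.3 and 80.8 in WT TAC, 43.2, 78.4 and 68.5 CPM in KO sham and 47.4, 51.2 and 46.9 CPM in KO TAC. The KO TAC libraries were below every WT library, while KO sham replicate 1 was the lowest of all. KO against WT after TAC stood at −0.50 ± 0.20 with no overlap (adjusted p = 0.0893). This call was not made with the 12 libraries and was made without KO sham replicate 1 (−0.50, adjusted p = 0.0107). That was the only 1 of the 12 fits with 1 library left out to make it, and adjusted p reached 0.272 in the others.

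Jak1 (chromosome 4, 101152367 to 101265282), the kinase of the ligand-specific chain, had a profile like that of Il10rb. Its values were 143, 137 and 122 CPM in WT sham, 74.6, 100.3 and 139 in WT TAC, 74.4, 144 and 136 CPM in KO sham, and 85.8, 92.7 and 80.0 CPM in KO TAC. WT TAC replicate 1 and KO sham replicate 1 were the lowest, and every pair of neighbouring groups overlapped. None of the 5 comparisons passed the test for Jak1 with all libraries. The exons of Jak1 overlap those of Raver2 on the opposite strand. Strand use in counting is not given, and Raver2 had 1130 counts over all libraries against 25293 for Jak1.

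Tyk2 (chromosome 9, 21104068 to 21131243), the kinase of the shared chain, differed in direction from Jak1. WT sham libraries were at 15.2, 15.8 and 17.9 CPM, and WT TAC libraries at 27.0, 16.9 and 18.1 CPM. In KO sham it read 36.2, 15.4 and 18.2 CPM and in KO TAC 34.5, 35.5 and 32.8 CPM. The KO TAC libraries lay close together above every WT library, and only KO sham replicate 1 reached them. After TAC the log2 difference between KO and WT was 0.73 ± 0.28 with no overlap (adjusted p = 0.0772). Without KO sham replicate 1 Tyk2 was called in that comparison (0.73, adjusted p = 0.00477) and for TAC against sham in KO (1.02 ± 0.19, adjusted p = 0.00125). Of the 12 fits that left out 1 library, 2 called it in KO against WT after TAC and 1 for TAC in KO. Without WT TAC replicate 3 the former difference was 0.60 (adjusted p = 0.228).

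Stat3 (chromosome 11, 100885098 to 100939540), the transcription factor of the pathway, showed no called difference with all 12 libraries. It was at 96.0, 95.1 and 70.1 CPM in WT sham, 71.6, 137 and 107 in WT TAC, 92.5, 92.6 and 107 CPM in KO sham and 74.6, 72.5 and 93.4 CPM in KO TAC. The groups overlapped throughout, and WT TAC held both the highest library and 1 of the lowest. After TAC it stood at −0.39 ± 0.23 in KO against WT (adjusted p = 0.208), which became −0.59 (adjusted p = 0.0369) without WT TAC replicate 1. That was the only 1 of the 12 fits with 1 library left out to call it. Without WT TAC replicate 3, the library at 137 CPM, the difference was −0.16 (adjusted p = 0.644). Stat3 shares exonic sequence with Stat5a on the opposite strand, which had 2990 counts against 20618 for Stat3.

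Socs3 (chromosome 11, 117966079 to 117970047), the feedback inhibitor, turned on a single library. Its values were 3.71, 4.18 and 3.93 CPM in WT sham, 3.24, 14.1 and 4.14 in WT TAC, 4.16, 2.18 and 3.80 CPM in KO sham, and 5.65, 5.32 and 4.59 CPM in KO TAC. WT TAC replicate 3 was more than 2 times as high as any other library, and the same library had the highest Stat3. KO TAC lay above KO sham with no overlap, at 0.63 ± 0.47 (adjusted p = 0.361). For TAC in WT the log2 difference was 0.86 ± 0.46 (adjusted p = 0.364), and without WT TAC replicate 3 it was −0.10. KO against WT after TAC went from −0.47 ± 0.46 to 0.49 when that library was left out, and neither value passed.

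Bcl3 (chromosome 7, 19808462 to 19822770) read 3.39, 2.77 and 3.13 CPM in WT sham, 3.64, 4.84 and 1.96 in WT TAC, 6.35, 3.37 and 4.40 CPM in KO sham and 4.69, 4.69 and 6.42 CPM in KO TAC. The KO means were the higher ones. Neighbours in the order of groups overlapped, while the KO TAC libraries all lay above those of WT sham. Its log2 differences between genotypes were 0.59 ± 0.32 after sham and 0.60 ± 0.32 after TAC (adjusted p = 0.416 and 0.178).

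Tnfaip3 (chromosome 10, 19000910 to 19015657) had the smallest adjusted p of the 9 tested genes. WT sham libraries read 4.76, 4.45 and 4.42 CPM and WT TAC libraries 2.75, 2.63 and 2.23 CPM. KO sham libraries read 5.26, 4.60 and 4.17 CPM and KO TAC libraries 5.17, 7.28 and 8.33 CPM. The WT TAC libraries were the 3 lowest of the 12, below every sham library, and the KO TAC group had the highest mean. After TAC, Tnfaip3 was 2.72-fold higher in KO than in WT, a log2 difference of 1.44 ± 0.21 (adjusted p = 0.0108). The call held in all 12 fits that left out 1 library, with adjusted p from 0.000351 to 0.0483 and log2 values from 1.30 to 1.61. TAC against sham stood at −0.84 ± 0.21 in WT (adjusted p = 0.138, no overlap) and at 0.57 ± 0.20 in KO (adjusted p = 0.112). The difference between these responses, the interaction, was 1.41 ± 0.29 with an unadjusted p of 0.000397 and an adjusted p of 0.241. DESeq2 called it (adjusted p = 0.00470), and so did edgeR without KO sham replicate 1 (1.49, adjusted p = 0.0110). That was the only 1 of the 12 fits with 1 library left out to call the interaction. Adjusted p reached 0.565 in the others. KO and WT sham hearts differed by 0.04 ± 0.20.

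Il4ra (chromosome 7, 125552120 to 125579474) was at 12.7, 11.0 and 14.0 CPM in WT sham, 20.7, 19.8 and 16.9 in WT TAC, 27.8, 14.5 and 18.3 CPM in KO sham, and 33.2, 38.2 and 26.8 CPM in KO TAC. WT sham lay below all other groups without overlap, and KO TAC overlapped only KO sham, through its replicate 1. After TAC it was 1.71-fold higher in KO than in WT, a log2 difference of 0.77 ± 0.22 (adjusted p = 0.0363). That call was kept in 4 of the 12 fits that left out 1 library. It was lost without any 1 of the WT sham libraries, WT TAC replicates 3 and 5 or any KO TAC library, with adjusted p up to 0.127, and with library totals in place of TMM (0.53, adjusted p = 0.0854). TAC against sham stood at 0.61 ± 0.22 in WT and 0.70 ± 0.22 in KO (adjusted p = 0.235 and 0.103), and KO against WT after sham at 0.68 ± 0.22 (adjusted p = 0.285). Its interaction was 0.09 ± 0.32.

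Promoter sequence was available for 7 of the 10 genes in RefSeq's table for GRCm38.p6, with 8 windows in all because Tnfaip3 has 2 start sites, and those of Tnfaip3 and Socs3 are shown because they held the matches to the motifs searched. The searches covered the 250 bases before the start site on both strands. They used TTCNNNGAA, a STAT-type palindrome, the same palindrome with 4 bases between TTC and GAA, and an NF-kB consensus. These were found in 7.02%, 5.85% and 7.25% of 32851 windows of that length. Tnfaip3 held 2 NF-kB matches, 125 to 116 and 12 to 3 bases before its upstream start, and a match to the longer palindrome 242 to 233 bases before it, outside the stretch shown. The window of its other start, chr10:19011964-19012213, held none of the motifs. Socs3 held a TTCNNNGAA match 154 to 146 bases before its start. None of these motifs was found in the windows of Jak1, Tyk2, Stat3, Bcl3 and Il4ra. A match is a description of these letters, and no binding was measured. Capitals mark the matches, and both stretches are read 5′ to 3′ on the minus strand, chr10:19015411-19015547 for Tnfaip3 and chr11:117969452-117969616 for Socs3.
Tnfaip3: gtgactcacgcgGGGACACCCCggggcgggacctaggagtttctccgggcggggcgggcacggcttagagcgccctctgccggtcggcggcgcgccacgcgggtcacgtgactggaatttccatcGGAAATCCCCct
Socs3: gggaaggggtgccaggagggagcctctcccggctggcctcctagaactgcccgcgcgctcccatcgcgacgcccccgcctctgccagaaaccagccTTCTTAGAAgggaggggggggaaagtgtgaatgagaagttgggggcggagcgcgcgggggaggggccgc

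Set against all genes tested, few of the 9 passed. After TAC, 2 of 9 were called in KO against WT, both higher, while 20.4% of the 15804 genes tested were called (8.63% higher and 11.7% lower). The share among the 9 is near that background. In TAC against sham in WT 0 of 9 were called by edgeR (0.0316% of all genes), with 2 at an unadjusted p under 0.05 (16.2% of all genes) and 1 called by DESeq2 (3.26%), which was Tnfaip3. For TAC against sham in KO the count was 0 of 9 (0%), with 2 at an unadjusted p under 0.05 (30.9%) and 1 called by DESeq2 (11.8%), which was Il4ra. Both shares are below those of all genes. KO against WT after sham gave 0 of 9 (0.00633%), with 1 at an unadjusted p under 0.05 (13.5%) and 0 by DESeq2 (1.31%). The interaction gave 0 of 9 (0%), with 1 at an unadjusted p under 0.05 (9.19%) and 1 by DESeq2 (0.595%). Libraries of the compared groups did not overlap for 3 genes higher and 1 lower in KO after TAC, where 46.9% of all genes did not overlap. The same counts were 1 higher and 1 lower for TAC in WT (27.1%), 1 higher for TAC in KO (22.4%, 11.6% higher) and 2 higher for KO after sham (22.5%, 12.2% higher).

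**Figure D3:**
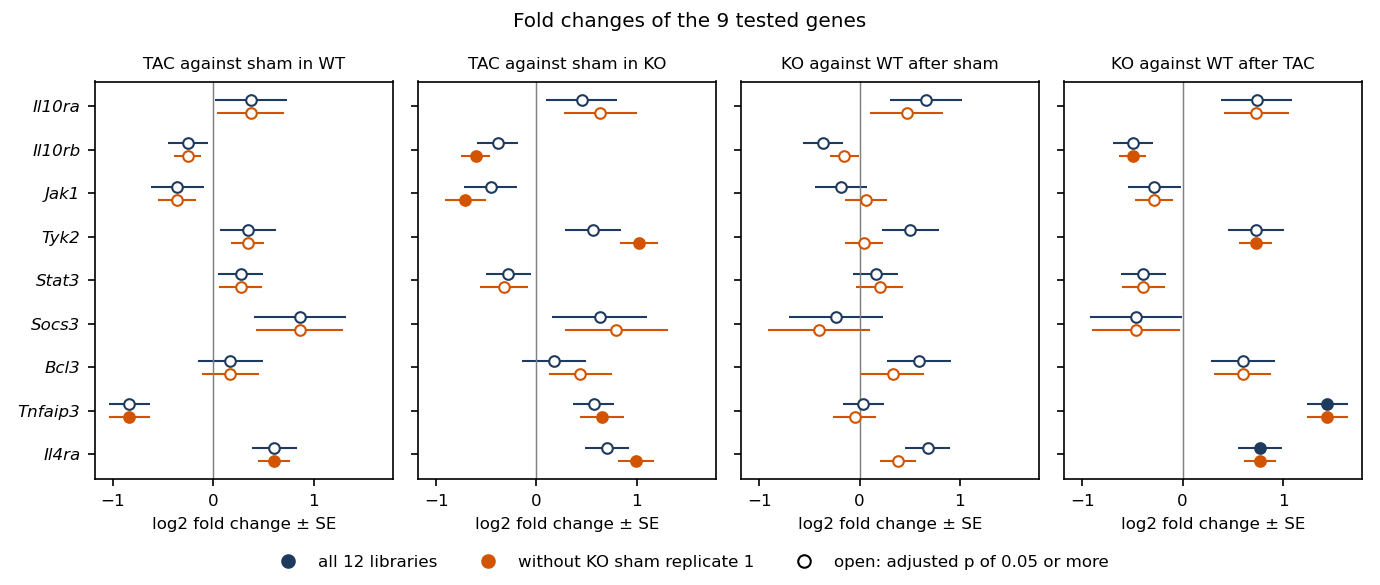
Log2 fold change ± SE of the 9 tested genes in 4 comparisons, with all 12 libraries (blue) and without KO sham replicate 1 (orange); filled points passed an adjusted p of 0.05. With all libraries Tnfaip3 at 1.44 and Il4ra at 0.77, in KO against WT after TAC, are the filled points.

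The counts depended on KO sham replicate 1, which lay within or past the KO TAC range for 8 of the 9 genes and outside the other KO sham libraries for all 9. Without it, TAC against sham in KO called 5 of 9 (47.6% of all genes): Il4ra at 0.99, Tyk2 at 1.02 and Tnfaip3 at 0.65 were higher, and Jak1 at −0.71 and Il10rb at −0.60 lower. KO against WT after TAC then called 4 of 9 (40.7%), adding Tyk2 higher and Il10rb lower. For TAC in WT it called 2 of 9 (6.53%), Tnfaip3 lower at −0.84 (adjusted p = 0.0344) and Il4ra higher at 0.61 (adjusted p = 0.0452). After sham it called 0 of 9 (0.241%), and for the interaction 1 of 9 (12.1%, 4.66% higher), Tnfaip3. KO sham libraries are not compared in TAC in WT or in KO against WT after TAC, but each gene's spread is estimated over all groups together. In KO against WT after TAC, Tyk2 stayed at 0.73 while its SE went from 0.28 to 0.17. Il10rb stayed at −0.50, with an SE of 0.20 before and 0.13 after. With WT TAC replicate 1 left out as well, 7 of 9 were called in KO against WT after TAC (53.8%), all but Bcl3 and Socs3, and the interaction called Tnfaip3, Tyk2, Stat3 and Jak1 (36.1%). Leaving out WT TAC replicate 1 alone gave 5 of 9 after TAC (33.6%), and leaving out any of the 8 libraries whose absence cost Il4ra its call gave 1 of 9, Tnfaip3. Of all genes, 10.6% to 12.8% were called without a WT sham library, 0.523% and 1.02% without WT TAC replicates 3 and 5, and 0.357%, 0.265% and 2.7% without KO TAC replicates 1, 3 and 5.

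Across the 12 libraries the genes fell into unlike profiles. With log2 CPM centred on each gene's mean, the closest pair was Il10rb and Jak1, with a root mean square difference of 0.19, and the next was Tyk2 and Il4ra at 0.21. The receptor chains Il10ra and Il10rb differed by 0.83 and the kinases Jak1 and Tyk2 by 0.84. Il10ra and Socs3 were farthest apart at 0.97. All pairs share the libraries and their depth. Among 12420 other genes, those with the most similar profile to Il10ra were Cd86, a costimulatory molecule of antigen-presenting cells (0.15), and the chemokine Cxcl9 (0.17). For Tnfaip3 they were Epb41l4b (0.18) and Timd4, a phosphatidylserine receptor of resident macrophages (0.22). Socs3 had the least close neighbours, Krt80 (0.31) and Flnc (0.38). The closest to Il10rb was Mpv17 (0.08), to Jak1 Fbxo3 (0.10), to Tyk2 Atp9b (0.08), to Stat3 Snx7 (0.13), to Bcl3 Ints7 (0.21) and to Il4ra Trim47 (0.12).

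**Figure D4:**
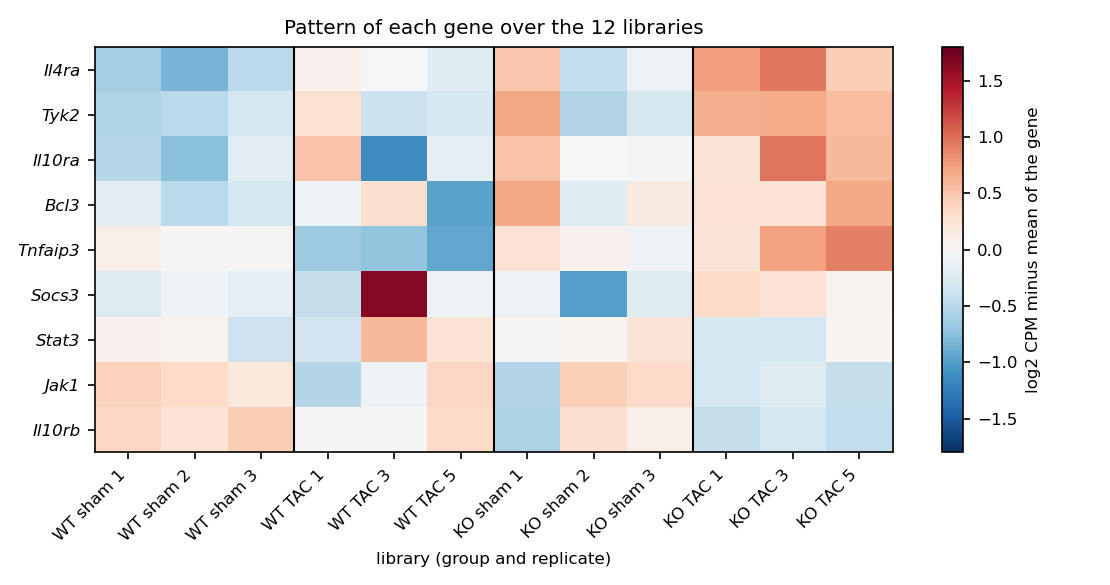
Log2 CPM minus the mean of each gene (colour scale) for the 9 tested genes in the 12 libraries. KO sham replicate 1 shows the colours of the KO TAC libraries for Tyk2, Il4ra, Jak1 and Il10rb, and WT TAC replicate 3 stands out for Socs3.

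The wider pathway was followed in 7 lists with 108 genes, of which 78 passed the filter on low counts. In KO against WT after TAC 10 were higher and 4 lower of 78, a share below the 20.4% of all genes called (8.63% higher and 11.7% lower), with a median log2 difference of 0.17 beside −0.02 over all genes tested. NF-kB subunits, inhibitors and partners of Bcl3 and Tnfaip3 held 6 of the 10, with 6 higher and 1 lower of 19, beside those same shares of all genes, and a median of 0.29. Nfkbiz, an atypical inhibitor of the Bcl3 kind, read 10.9, 8.60 and 5.39 CPM in WT TAC and 20.3, 24.6 and 73.4 CPM in KO TAC, a log2 difference of 2.25 ± 0.66 (adjusted p = 0.0369). Nfkbia, the classical inhibitor IkB-alpha, read 64.3, 31.1 and 37.3 CPM against 89.3, 82.6 and 97.8 CPM (1.02 ± 0.30, adjusted p = 0.0380). Groups did not overlap for either gene. Also higher in KO than in WT were Traf1 (1.45), a signalling adaptor, and Tnip2 (1.03), a binding partner of A20. The rest were the subunits Nfkb1 (0.56) and Rela (0.50). Nfkbib, which encodes IkB-beta, was lower in KO than in WT by 0.68.

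**Figure D5:**
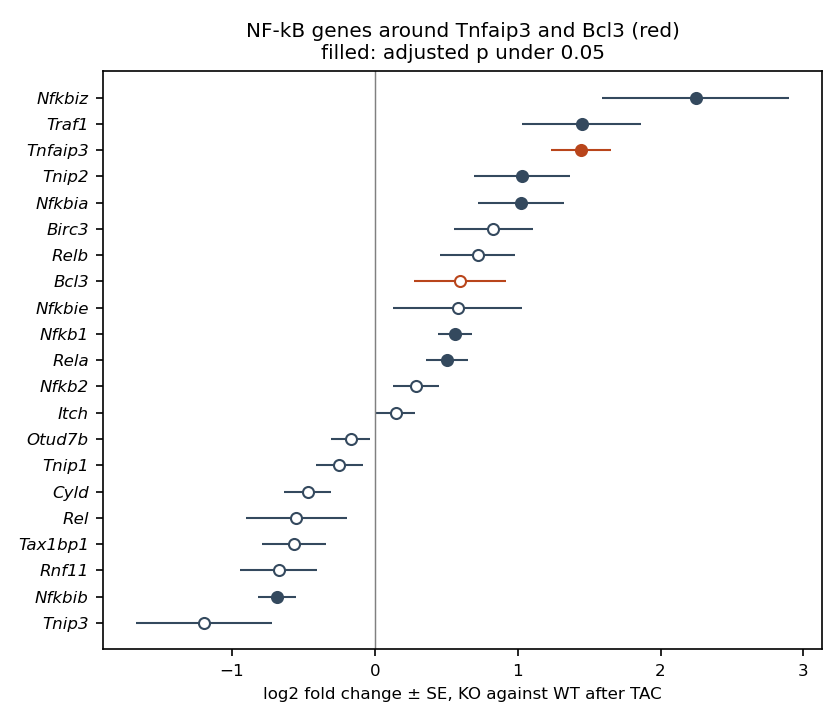
Log2 fold change ± SE, KO against WT after TAC, for the 19 genes of the NF-kB list with Bcl3 and Tnfaip3 in red; filled points passed an adjusted p of 0.05. Nfkbiz at 2.25 is the highest of the list and Nfkbib at −0.68 the only list gene called lower.

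In the same comparison, 2 of 7 tested genes of the IL-4 and IL-13 list were higher in KO than in WT and 1 lower. Beside each list count here, 8.63% of all genes were called higher and 11.7% lower. Retnla, a secreted protein of alternatively activated macrophages (2.28), and Stat6, the transcription factor below Il4ra (0.59), were higher. Il13ra1, the partner chain of Il4ra, was lower (−1.12). Il4 itself stood at 1.10 with an adjusted p of 0.0627, and Il13 had no count in any library. Among 11 genes of the IL-6 family, which also signals through Jak1 and Stat3, Cntfr was higher by 1.48 and Ctf1, cardiotrophin-1, lower by 1.53. In the list of genes known to be raised by IL-10 in macrophages, 1 of 13 was higher and 1 lower. These were Dusp1, a phosphatase acting on MAP kinases, higher by 1.45, and Cd163, the deleted gene. The other Janus kinases, STATs and inhibitors had Stat6 as the single call of 20. Of the inflammatory genes that IL-10 restrains, edgeR called 0 of 11, with 3 at an unadjusted p under 0.05 (Tnf at 1.79, Cxcl1 at 1.65 and Cd86 at 0.74) and 1 called by DESeq2, where 40.8% and 30.2% of all genes were. WT TAC and KO TAC libraries overlapped for all 11. KO TAC replicate 5 was the highest library for Tnf (2.62 CPM, with 0.345 and 0.704 in the other KO TAC libraries) and for Cxcl1 (13.6 CPM, with 2.62 and 6.42). The other IL-10 family ligands on the list, Il19, Il20, Il22, Il24, Ifnl2 and Ifnl3, did not pass the filter on low counts. Of the family's receptors Il20rb (−0.10) and Ifnlr1 (−0.33) were tested, and neither passed.

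The list counts rested on single libraries more than Tnfaip3 did. Without KO sham replicate 1, 19 of 81 pathway genes tested were higher and 11 lower after TAC, 8 and 4 of them in the NF-kB list, where 40.7% of all genes were called. Without WT TAC replicate 1 the counts were 14 and 12 of 80 (33.6% of all genes). Without WT TAC replicate 3 or 5, or KO TAC replicate 1 or 3, 1 was higher and 1 lower, and 0 of the NF-kB list was called. With KO TAC replicate 5 left out 1 was higher and 2 lower, and without any 1 WT sham library 5 were higher and 2 lower. Library totals in place of TMM gave 4 higher and 11 lower, and in the NF-kB list 1 higher and 5 lower. In the other 4 comparisons edgeR called 0 of 78. At an unadjusted p under 0.05 there were 19 for TAC in WT (16.2% of all genes), 19 for TAC in KO (30.9%), 19 for KO after sham (13.5%) and 5 for the interaction (9.19%). DESeq2 called 3, 6, 1 and 2, where it called 3.26%, 11.8%, 1.31% and 0.595% of all genes.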

How the data were processed

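Poly(A) RNA of 12 hearts was sequenced as 150 bp pairs, per the labels' protocols. The deposited table gives whole-number read counts per Ensembl gene, not normalized by the authors. HISAT2 is named in the submitters' processing notes; counting program, build, annotation and strand use: not given in the sources used here. Symbols, positions and exon lengths came from GENCODE M21 (GRCm38), which matched 52081 identifiers and left 3276 unmatched. Groups follow the labels, which do not name the animal of each sample, and p-values therefore cover only the spread among the libraries.

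The test was that of edgeR 4.0.16, run in R 4.3.3 (filterByExpr, TMM scaling, robust quasi-likelihood fit of all 12 libraries with a coefficient per group, 8 residual degrees of freedom, Benjamini-Hochberg over 15804 genes, threshold 0.05). Every adjusted p is from this fit unless DESeq2 1.42.0 or a left-out library is named. Values are TMM-scaled CPM, and differences are log2 ± SE. Intervals for Il10 are exact Poisson at 95%. The fit was tested on simulated counts, and the outcome is not given here. No replicate pair agreed within counting noise, the lowest chi-square per gene being 8.59. KO sham replicate 1 stood farthest from its replicates, at 227 and 217. WT TAC replicate 1 came next, at 80.5 and 98.3, while WT TAC replicates 3 and 5 differed by 20.9.

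Named genes were the 10 members, called genes of the pathway lists (else the 4 with the smallest p), Cd163, and the 2 genes with the most similar centred profile. Il4, Il13 and Il6 were named after their values were seen. Members and lists were chosen with earlier results of these data known. Alternatives were other scaling, DESeq2, no filter on low counts, a replicate block, only the compared groups and each library left out. A fit without both KO sham replicate 1 and WT TAC replicate 1 was also run.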

Additional observations from a re-analysis of the deposited data

How the results depend on the processing

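With each of the 12 libraries left out in turn, the number of the 9 genes called ran from 0 to 2 for TAC in WT, from 0 to 5 for TAC in KO, from 1 to 5 for KO against WT after TAC and from 0 to 1 for the interaction, and was 0 in every such fit for KO against WT after sham. DESeq2 called 1 gene for TAC in WT, 1 for TAC in KO and 1 for the interaction. For KO against WT after TAC, library totals gave 1 and only the compared groups 4. With both KO sham replicate 1 and WT TAC replicate 1 left out (below, without both), the counts were 1 for TAC in WT, 5 for TAC in KO, 7 after TAC and 4 for the interaction. Library totals in place of TMM moved the median log2 value of all genes to 0.17, −0.19, 0.12, −0.24 and −0.40 in the 5 comparisons, so member values on that scale are relative to those shifts.

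Of the log2 values under the alternatives, 772 kept their direction and side of the threshold, 33 came to pass it, 9 (all Il4ra in KO against WT after TAC) no longer passed it and 32 changed sign, all of them values without a call. For TAC in WT, leaving out single libraries gave −0.093 to 0.70 for Il10ra (−0.082 without both libraries), −0.10 to 1.21 for Socs3 and −0.14 to 0.45 for Bcl3. After sham the ranges were −0.36 to 0.065 for Jak1 (0.077 without both) and −0.047 to 0.11 for Tnfaip3 (−0.035 without both). For KO against WT after TAC the range of Socs3 was −0.80 to 0.49. For the interaction, single libraries left out gave −0.28 to 0.31 for Bcl3, −0.25 to 0.57 for Il10ra, −0.56 to 0.72 for Socs3, −0.35 to 0.066 for Il10rb, −0.35 to 0.16 for Jak1 and −0.078 to 0.38 for Il4ra. There library totals gave −0.27 for Il10ra, −0.10 for Tyk2, −0.30 for Bcl3 and −0.23 for Il4ra, and no filter on low counts gave −0.036 for Bcl3. Beyond the construction of each alternative, the cause was not tested.

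Over all genes the count called was 5 for TAC in WT, and 44 with library totals, 515 by DESeq2, 137 without the filter, 0 with the block, 89 with only the compared groups and 989 without both libraries. For TAC in KO it was 0, with 1863 by DESeq2, 687 without the filter and 8879 without both. After sham it was 1, with 207 by DESeq2, 80 without the filter and 295 without both. In KO against WT after TAC 3219 were called (1364 higher, 1855 lower), 3525 with library totals (515 and 3010) and 8614 without both, and between 43 and 6585 with 1 library left out. The interaction gave 0, with 7 by library totals, 94 by DESeq2, 43 without the filter and 5774 without both.

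With the replicate number as a block the numbers of genes called among the 9 were 0, 0, 0, 2 and 0, the same as without it, and over all genes 2411 were called in KO against WT after TAC. Whether the numbers pair the samples was not settled. Correlations of the deviations of same-numbered libraries ran from −0.19 to 0.62. The highest were between WT TAC and KO sham, at 0.62 for replicate 1 and 0.33 for replicate 3. Best matches were sought only between WT and KO libraries of the same surgery, a search that leaves out those pairs. In it 1 of 6 WT libraries, WT sham replicate 2, correlated best with its own number. The depth limits Il10 most, with 8 counts in all.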

Other observations

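Other genes tied to this signalling also differed by library. Il6, the cytokine that shares Jak1 and Stat3 with IL-10, read 1.18 CPM in WT TAC replicate 3, the library with the highest Socs3 (14.1 CPM) and Stat3 (137 CPM), against 0.344 and 0.163 CPM in the other WT TAC libraries. It also read 1.09 CPM in KO sham replicate 1, where Socs3 was at 4.16 CPM, and 0.721 CPM in KO TAC replicate 5. Nfil3, a transcriptional repressor known to be raised by IL-10 in macrophages, had lower means after TAC in both genotypes. With all 12 libraries neither difference passed the test. It was at 19.4, 20.2 and 19.9 CPM in WT sham and at 4.33, 8.33 and 8.22 CPM in WT TAC (−1.51 ± 0.45, adjusted p = 0.186). KO sham libraries read 7.17, 31.3 and 29.8 CPM and KO TAC libraries 5.59, 5.79 and 9.31 CPM (−1.73 ± 0.45, adjusted p = 0.103). The low KO sham value is that of replicate 1. Without that library, 1 of 14 tested genes of the list that holds Nfil3 was called lower for TAC in each genotype. In the same list 1 gene was called higher in WT and 4 in KO. Of all genes, 6.53% in WT and 47.6% in KO were then called in either direction. The lowest log2 values of the list were −1.52 in WT and −2.15 in KO.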
